A study of Mus musculus with 6 samples.

Results

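The genes described here are 47 ribosome biogenesis factors, taken by name from their textbook roles and not from their values, out of 23896 genes with a symbol in the count files. Earlier results of these data were known when they were chosen. Each gene was represented by its RefSeq transcript with the highest mean count, and all 47 were among the 12381 genes that passed the filter on low counts. They comprise 4 RNA polymerase I (Pol I) transcription factors and subunits, 3 box C/D snoRNP proteins, 4 box H/ACA snoRNP proteins, 3 nucleolar chaperones, 19 small subunit factors and 14 large subunit factors. The samples were MEL cells, a mouse erythroleukemia line held at the proerythroblast stage, collected before induction (day 0) and after 2 and 4 days in medium with 2% DMSO, which drives the line along the red cell lineage. Polyadenylated RNA was sequenced from 2 cultures a day, giving 6 libraries of 1 cell line, so no other line or primary erythroblast stands behind these values. None of the libraries came from a culture kept for 2 or 4 days without DMSO. Changes with DMSO and changes with time in culture therefore cannot be told apart.

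Ribosomes are made in the nucleolus, where Pol I transcribes a long precursor rRNA. Box C/D particles guide ribose methylation and box H/ACA particles guide pseudouridylation of that precursor, while the U3 particle and the small subunit processome fold and cleave it into the small subunit rRNA. A separate set of factors builds the large subunit, and both particles are then exported to the cytoplasm. Growing progenitors make many ribosomes, and late erythroblasts shut the nucleolus down as the nucleus condenses.

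Counts assigned to transcripts ranged from 35294930 to 53899476 per library. Levels below are in CPM, counts scaled to a common library size, with TMM factors that correct for differences in library composition. The summed level of 5 erythroid markers (Gata1, Klf1, Epor, Alas2 and Slc4a1) was 645 and 742 CPM at day 0, 870.2 and 975 CPM at day 2, and 2172 and 2438 CPM at day 4. The summed level of 4 macrophage markers was lower after day 0, at 6.84 and 6.41 CPM, then 1.51 and 1.61 CPM, then 2.49 and 2.21 CPM. That of 4 stromal markers, 1 of which was at 0 in all 6 libraries, went from 7.23 and 8.30 CPM to 4.24 and 3.44 CPM and then 2.08 and 2.50 CPM, and 4 lymphoid markers summed to at most 0.172 CPM in any library. The part of these marker levels in the results was not tested. The 2 day 0 libraries differed more than the others did, with a median absolute log2 difference over all tested transcripts of 0.19, against 0.11 at day 2 and 0.13 at day 4. Over the 47 factors alone this median was 0.18 at day 0, 0.08 at day 2 and 0.20 at day 4, where replicate 2 was the lower by a median of -0.20. As these are bulk libraries, fewer cells of a type and less RNA per cell cannot be told apart, and CPM give each mRNA only relative to the other mRNAs. Protein levels were not measured in these libraries, so a factor or protein said to fall or rise stands for its mRNA.

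By day 4 nearly the whole set had fallen. Of the 47 factors, 45 were called lower at day 4 than at day 0 and 0 were called higher (edgeR quasi-likelihood test, adjusted p below 0.05), whereas 36.4% of all tested genes were called lower and 35.5% higher. DESeq2 also gave 45 lower and 0 higher, and 0 factors were higher at an unadjusted p below 0.05 in edgeR. The median log2 fold change was -1.48 over the 47 factors and -0.02 over all tested genes, and the median factor kept 35.9% of its day 0 level. A fall to 50% or less, that is a log2 fold change of -1 or below, was called for 36 factors and for 18.8% of all tested genes. Both day 4 libraries lay below both day 0 libraries for 46 of the 47 factors, which held for 42.4% of all tested genes. The exception was Ubtf. Together the 47 transcripts took 0.683% and 0.795% of all transcript counts in the day 0 libraries, 0.422% and 0.403% at day 2, and 0.321% and 0.267% at day 4. These are shares of counts, in which a read may enter once for each transcript of a gene.

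**Figure D1:**
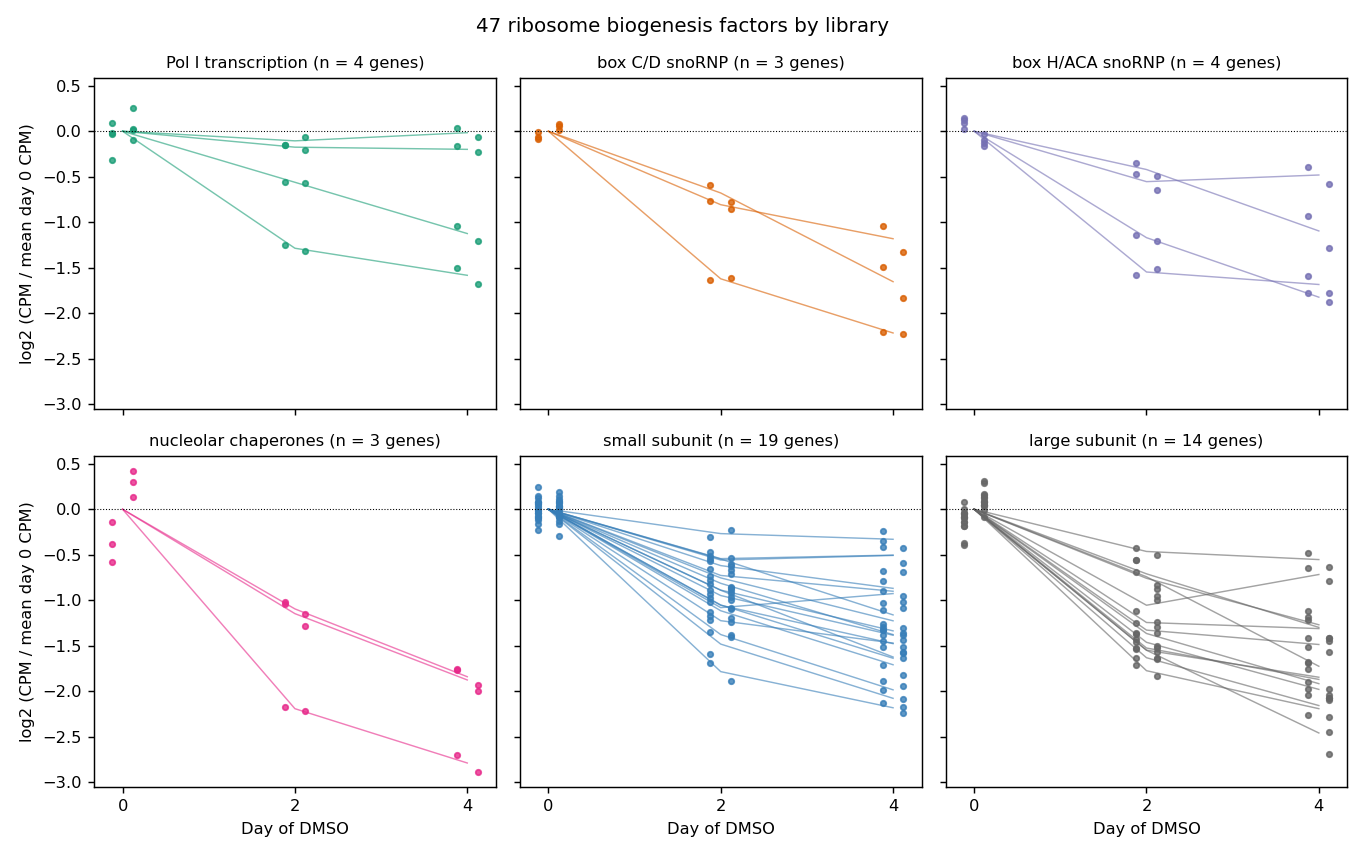
Level of each factor in each library as log2 of its CPM over its mean day 0 CPM, against the day of DMSO, with 1 panel per role. Points left and right of a day are replicates 1 and 2 and lines join the daily means. All lines but those of Ubtf and Rrn3, the upper pair of the Pol I panel, stand for genes called lower at day 4, with Nolc1 lowest at a log2 fold change of -2.79.

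The 4 Pol I genes formed 2 pairs. The catalytic core fell and the initiation factors did not pass the test, so 2 of 4 were called lower and the group median was -0.66. Polr1a (chr6:71909053-71979435), which encodes the largest Pol I subunit, was at 186 and 164 CPM at day 0, 73.5 and 70.1 CPM at day 2, and 62.0 and 54.8 CPM at day 4. Its level was lower in every later library than in either day 0 library, and its log2 fold change from day 0 to day 4 was -1.59 ± 0.12 (SE, edgeR adjusted p = 5.04e-07). Polr1b, the second subunit of the catalytic core, fell by 1.13 on the log2 scale (SE 0.11, edgeR adjusted p = 3.3e-06).

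Ubtf (chr11:102304560-102323649) encodes UBF, the factor that binds rDNA and keeps it open for Pol I. It was at 214 and 317 CPM at day 0, 239 and 254 CPM at day 2, and 271 and 254 CPM at day 4. The later libraries all lay between the 2 day 0 libraries, and the log2 fold change of day 4 against day 0 was -0.02 ± 0.16 (SE, edgeR adjusted p = 0.931). Its direction rested on which day 0 library was kept: the value was 0.28 (edgeR adjusted p = 0.0295) without day 0 replicate 2 and -0.28 (adjusted p = 0.0279) without day 0 replicate 1, and it was 0.10 with total counts as the scaling. At day 2 the value was -0.36 (edgeR adjusted p = 0.00741) without day 0 replicate 1 and 0.20 (adjusted p = 0.126) without day 0 replicate 2. A second Ubtf transcript in the files gave -0.01, which may rest largely on the same reads and is not separate evidence. Rrn3, the initiation factor TIF-IA that brings Pol I to the promoter, had a log2 fold change of -0.20 ± 0.10 (SE, edgeR adjusted p = 0.0858).

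The mRNAs of all 7 snoRNP proteins fell. The box C/D group had a median log2 fold change of -1.66, with 3 of 3 called lower. Fbl (chr7:28168893-28179269), the methyltransferase fibrillarin, was at 58.6 and 65.5 CPM at day 0, 20.0 and 20.3 CPM at day 2, and 13.4 and 13.3 CPM at day 4. The 3 days did not overlap, replicates differed little, and the fall to day 4 was 4.66-fold (log2 fold change -2.22 ± 0.12, SE, edgeR adjusted p = 7.22e-08). Nop56 (chr2:130274367-130279313), a scaffold of the same particles, was at 204 and 221 CPM, then 125 and 118 CPM, then 103 and 84.4 CPM, a log2 fold change of -1.18 ± 0.12 (SE, edgeR adjusted p = 6.32e-06). This was the smallest fall of the group, again with no overlap between days. Nop58, the partner of Nop56 in the scaffold, fell by 1.66 on the log2 scale.

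The box H/ACA group had a median log2 fold change of -1.39, with 4 of 4 called lower. Gar1 (chr3:129824912-129831407), a protein that acts in product release, was at 72.0 and 62.9 CPM at day 0, 30.6 and 29.3 CPM at day 2, and 19.7 and 18.4 CPM at day 4. The days were well separated, with a log2 fold change of -1.83 ± 0.12 (SE, edgeR adjusted p = 2.54e-07). Nop10 (chr2:112261926-112262898), the smallest protein of the particle, was at 41.9 and 35.4 CPM, then 27.9 and 24.8 CPM, then 29.5 and 25.9 CPM. Its day 2 and day 4 libraries overlapped and both lay below day 0, with a log2 fold change of -0.48 ± 0.13 at day 4 (SE, edgeR adjusted p = 0.00664), which was not called without day 4 replicate 2 (-0.39, adjusted p = 0.0728). The pseudouridine synthase Dkc1 fell by 1.10 and its RNA-binding partner Nhp2 by 1.69 on the log2 scale.

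The 3 nucleolar chaperones were Nolc1, Npm1 and Ncl, abundant phosphoproteins that bind snoRNPs, preribosomes and pre-rRNA, and all 3 were called lower with a median log2 fold change of -1.88. Nolc1 (chr19:46075847-46085543), also called Nopp140, was at 394 and 789 CPM at day 0, 131 and 127 CPM at day 2, and 91.0 and 79.9 CPM at day 4. Its fall was 6.92-fold, the largest of the 47 with all 6 libraries (log2 fold change -2.79 ± 0.26, SE, edgeR adjusted p = 2.81e-06), although its 2 day 0 libraries stood 1.00 apart on the log2 scale. The log2 fold change was -2.22 without day 0 replicate 2 and -3.21 without day 0 replicate 1, with an adjusted p below 0.05 in both. Without day 0 replicate 2 it ranked 2 of 47, behind Wdr12 at -2.56.

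Ncl (chr1:86344719-86359455), nucleolin, was at 924 and 1492 CPM at day 0, 586 and 545 CPM at day 2, and 358 and 316 CPM at day 4. Its day 0 libraries were 0.69 apart on the log2 scale, yet both were above all later ones, and the log2 fold change was -1.84 ± 0.20 (SE, edgeR adjusted p = 8.71e-06). Npm1, nucleophosmin, fell by 1.88. Its other 2 transcripts in the files gave -1.88 and -1.98, values that may rest largely on the same reads and are not separate evidence. A day 0 replicate difference above 0.5 log2 was seen for 6 factors, with replicate 2 higher for Nolc1, Ncl, Rrs1 (0.71), Ebna1bp2 (0.66) and Ubtf (0.57) and lower for Imp4 (-0.54), and for 0 factors at day 2 or day 4.

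**Figure D2:**
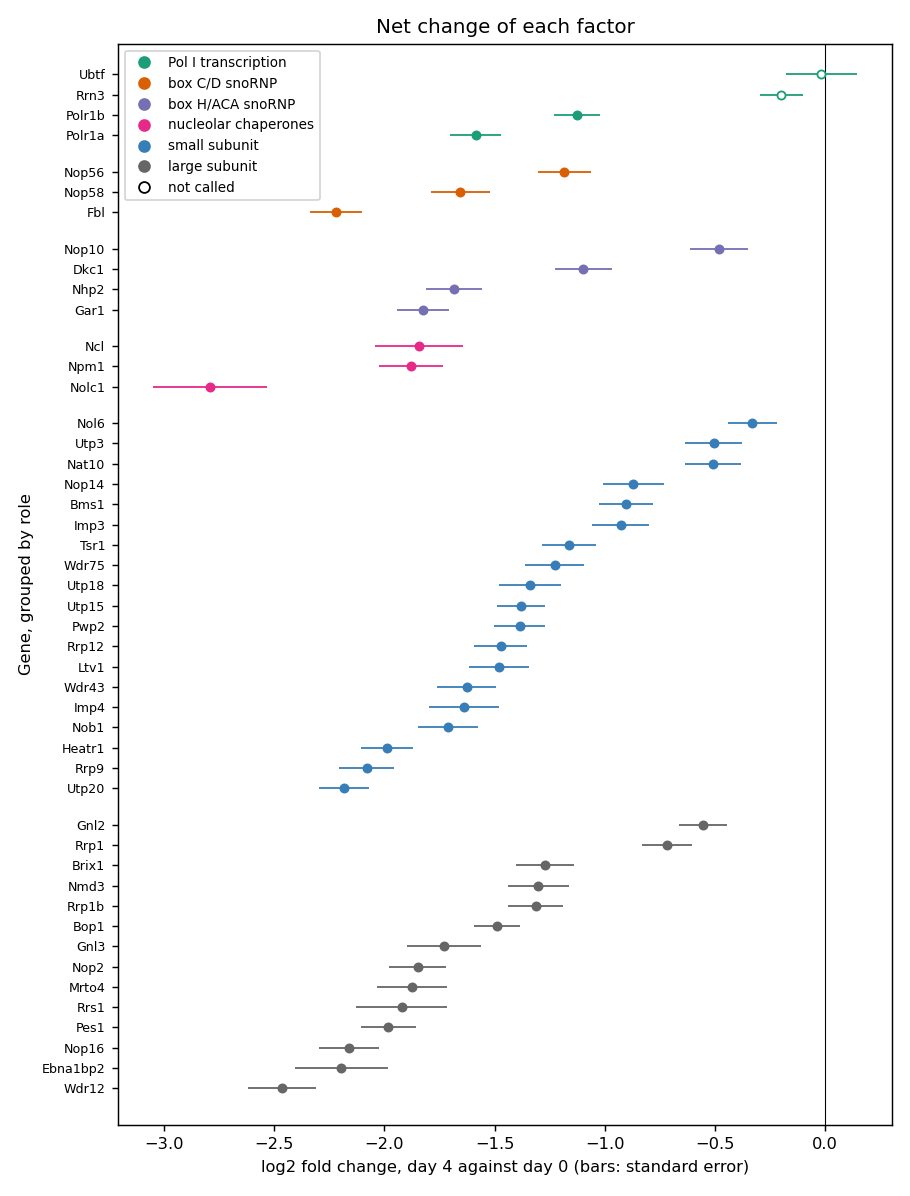
Log2 fold change of day 4 against day 0 for each of the 47 factors, with bars for the standard error, ordered within each role. Filled points were called at an adjusted p below 0.05 and open points were not. The 2 open points are Ubtf and Rrn3, and the values run from -2.79 for Nolc1 to -0.02 for Ubtf.

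All 19 small subunit factors were called lower at day 4, with a median log2 fold change of -1.38 and a range of -2.18 to -0.33. Utp20 (chr10:88746607-88826814), a large processome scaffold protein, was at 155 and 164 CPM at day 0, 49.3 and 42.9 CPM at day 2, and 36.3 and 33.7 CPM at day 4. It had the largest fall of the group, 4.54-fold, with no overlap between days (log2 fold change -2.18 ± 0.11, SE, edgeR adjusted p = 6.05e-08). Rrp9 (chr9:106477309-106485415), the protein found only in the U3 snoRNP, was at 77.6 and 81.6 CPM, then 26.3 and 30.6 CPM, then 20.1 and 17.6 CPM. It also stepped down on each day, by 2.08 in all (SE 0.13, edgeR adjusted p = 1.54e-07). Heatr1 (chr13:12395375-12438893), the mammalian UTP10, was at 308 and 278 CPM, then 115 and 110 CPM, then 78.9 and 69.0 CPM, and fell by 1.99 (SE 0.12, edgeR adjusted p = 1.42e-07).

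Nol6 (chr4:41114427-41124339), a processome component and the mammalian UTP22, fell least in this group. It was at 88.4 and 99.8 CPM at day 0, 76.2 and 80.1 CPM at day 2, and 79.6 and 70.0 CPM at day 4. Days 2 and 4 overlapped, all 4 of these libraries lay below day 0, and the log2 fold change at day 4 was -0.33 ± 0.11 (SE, edgeR adjusted p = 0.0191). That call did not hold without day 4 replicate 2 (-0.24, adjusted p = 0.171) or with total counts as the scaling (-0.21, adjusted p = 0.116).

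Within the small subunit group the assembly modules differed in their medians. The UTP-A proteins, which join the nascent 5′ end of the precursor first, were Heatr1, Utp15 (-1.38), Wdr43 (-1.63) and Wdr75 (-1.23), and their median log2 fold change was -1.50. The UTP-B proteins Pwp2 (-1.39) and Utp18 (-1.34) had a median of -1.36. In the U3 and MPP10 module, Rrp9 and Imp4 (-1.64) fell more than Imp3 (-0.93) and Utp3 (-0.51), and the median was -1.28. The remaining processome proteins fell least in the median (-0.87): besides Utp20 and Nol6 these were Nop14 (-0.87), the acetyltransferase Nat10 (-0.51) and the GTPase Bms1 (-0.90). The factors that ride on the pre-40S particle had a median of -1.48, from the endonuclease Nob1 (-1.71), Ltv1 (-1.48) and Rrp12 (-1.47) to Tsr1 (-1.16). Without day 4 replicate 2 the calls of Utp3 (adjusted p = 0.0501) and Nat10 (0.0571) did not hold. These modules hold 2 to 5 genes each and the differences between them were not tested.

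The 14 large subunit factors were all called lower, with a median log2 fold change of -1.79 and a range of -2.46 to -0.55. Wdr12 (chr1:60071361-60098500), a WD-repeat protein of the PeBoW complex, was at 81.8 and 72.4 CPM at day 0, 27.9 and 24.7 CPM at day 2, and 16.1 and 11.9 CPM at day 4. Its fall of 5.52-fold ran through both steps without overlap (log2 fold change -2.46 ± 0.16, SE, edgeR adjusted p = 1.98e-07). Its PeBoW partners Pes1 (-1.98) and Bop1 (-1.49), which together with it process the large subunit rRNA, fell as well.

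Ebna1bp2 (chr4:118620799-118627776), the mammalian EBP2, was at 199 and 315 CPM at day 0, 78.1 and 71.9 CPM at day 2, and 65.3 and 47.03 CPM at day 4, a log2 fold change of -2.20 ± 0.21 (SE, edgeR adjusted p = 3.66e-06). Nop16 (chr13:54584191-54590097), a nucleolar pre-60S protein, was at 137 and 173 CPM, then 50.04 and 49.9 CPM, then 37.7 and 31.7 CPM, a log2 fold change of -2.16 ± 0.14 (SE, edgeR adjusted p = 2.09e-07). For both genes the 3 days did not overlap. Gnl2 (chr4:125029989-125055382), a nucleolar GTPase, had the smallest fall of the group. It was at 109 and 123 CPM at day 0, 86.2 and 81.8 CPM at day 2, and 83.2 and 74.7 CPM at day 4, so that days 2 and 4 overlapped below day 0 (log2 fold change -0.55 ± 0.11, SE, edgeR adjusted p = 8.33e-04). Its relative Gnl3, nucleostemin, fell by 1.73.

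Among the other large subunit factors, the rRNA methyltransferase Nop2 (-1.85), Rrs1 (-1.92), which takes part in 5S particle docking, and Mrto4 (-1.88), which holds the place of the stalk protein, had log2 fold changes close to one another. Brix1 (-1.27), Rrp1b (-1.31) and the export adaptor Nmd3 (-1.30) fell less. Rrp1 (chr10:78400362-78413043), a nucleolar pre-60S protein, went down and then partly back up. It was at 206 and 231 CPM at day 0, 101 and 109 CPM at day 2, and 139 and 126 CPM at day 4. Both day 4 libraries lay above both day 2 libraries and below day 0, and the log2 fold change was -1.06 ± 0.11 in the first step (SE, edgeR adjusted p = 1.82e-05) and -0.72 ± 0.11 over both (SE, edgeR adjusted p = 1.69e-04).

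Most of the fall was in place at day 2. Against day 0, 44 factors were called lower and 0 higher at day 2 in edgeR, beside 31.5% and 31% of all tested genes. In edgeR 0 were higher at an unadjusted p below 0.05, and DESeq2 called 45 lower and 0 higher. The median log2 fold change was -1.06, against 0.01 over all tested genes, and the median factor kept 48.1% of its day 0 level. The 3 not called were Ubtf (-0.11, edgeR adjusted p = 0.588), Rrn3 (-0.18, adjusted p = 0.136) and Nol6 (-0.27, adjusted p = 0.0537). Without day 2 replicate 2 the calls of Dkc1 (adjusted p = 0.137), Nop10 (0.0594) and Gnl2 (0.0515) did not hold, and with total counts those of Dkc1 (0.164) and Gnl2 (0.0577) did not. The group medians at day 2 were -0.37 for Pol I, -0.81 for box C/D, -0.86 for box H/ACA, -1.15 for the chaperones, -0.89 for the small subunit and -1.35 for the large subunit.

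From day 2 to day 4 the changes were smaller. In this step 26 factors were called lower and 1 higher, beside 16.2% and 14% of all tested genes, with medians of -0.45 and 0.00. The largest second-step falls were those of Gnl3 (-0.99), Nop58 (-0.98) and Wdr12 (-0.91), which at day 4 stood at 30.2%, 31.8% and 18.2% of their day 0 levels. The 1 factor called higher was Rrp1, with a log2 fold change of 0.34 ± 0.11 (SE, edgeR adjusted p = 0.0437), and this call did not hold without any 1 of the day 2 and day 4 libraries (adjusted p from 0.109 to 0.314), with total counts (0.121) or with the replicate number as a block (0.0522). The count of 26 was itself sensitive to single libraries, and fell most without day 2 replicate 1, day 2 replicate 2 or day 4 replicate 2. Such a fit has 1 library on a compared day, and no share of all tested genes was worked out for it. The median log2 fold change of the factors in this step was -0.57 to -0.35 with each library left out in turn. The call of a fall in both steps was made for 26 factors and for 9.05% of all tested genes. These 26 included all 3 box C/D proteins and all 4 UTP-A proteins, but 1 of 4 Pol I genes and 6 of 14 large subunit factors.

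By the estimates alone, the first step was the larger for 42 of the 47 factors, the exceptions being Polr1b, Nop58, Dkc1, Tsr1 and Gnl3. This count was not made over all tested genes, and with total counts as the scaling the sign of the difference between steps turned for 7 factors. The test of the second step minus the first gave a larger first fall for 17 factors and a larger second fall for 0, beside 13.1% and 16.9% of all tested genes with a positive and a negative difference (edgeR). DESeq2 gave 20 and 0, and its 20 held 16 of the 17, all but Nolc1 (DESeq2 adjusted p = 0.0596). At an unadjusted p below 0.05 edgeR gave 27 and 0. The 17 were 8 large subunit factors (Pes1, Bop1, Nop2, Nop16, Ebna1bp2, Rrp1, Rrp1b and Mrto4), 5 small subunit factors (Heatr1, Rrp9, Imp3, Utp20 and Rrp12), and Polr1a, Fbl, Nhp2 and Nolc1. Nhp2 showed this shape plainly: it was at 169 and 137 CPM at day 0, 51.1 and 53.5 CPM at day 2, and 50.7 and 44.5 CPM at day 4, with a difference between steps of 1.41 ± 0.22 on the log2 scale (SE, edgeR adjusted p = 0.00129). Imp3, an MPP10 partner, went from 66.7 and 54.2 CPM to 26.8 and 30.3 CPM and then stood at 32.3 and 31.3 CPM, a difference of 1.24 ± 0.23 (SE, edgeR adjusted p = 0.00306). The number of such factors was much smaller without either day 2 library and larger without day 0 replicate 1, and no share of all tested genes was worked out for these fits. The median difference between steps was 0.43 to 0.66 with each library left out in turn. Since day 2 enters both steps with opposite sign, its 2 libraries bear on this comparison most directly.

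**Figure D3:**
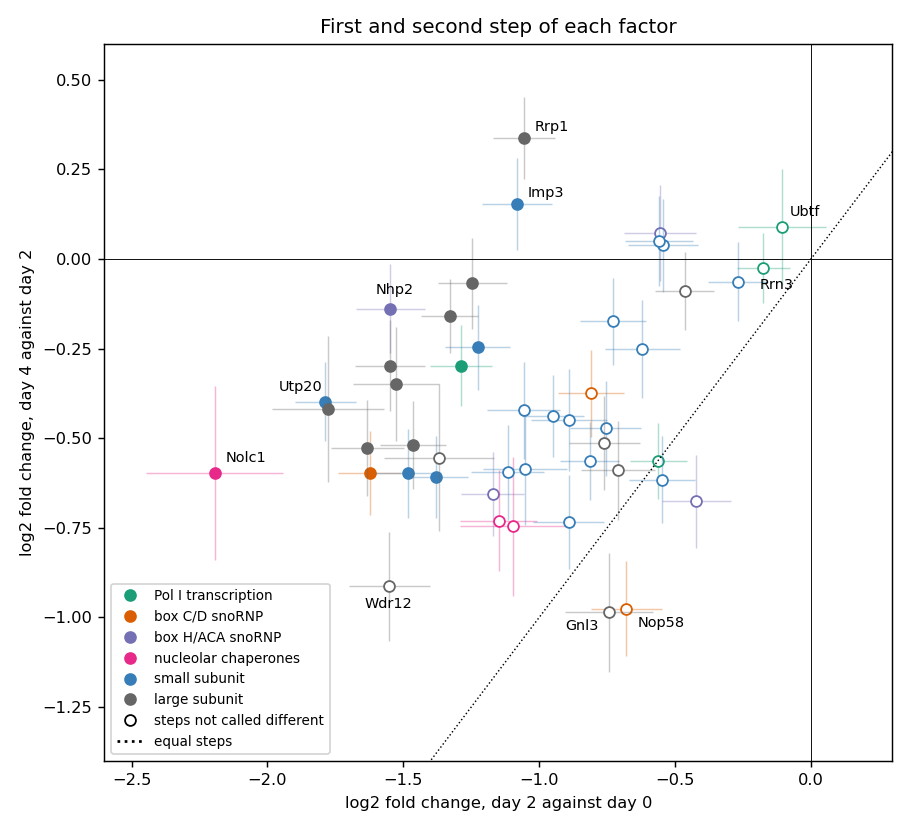
Log2 fold change of the second step (day 4 against day 2) plotted against the first (day 2 against day 0) for each factor, with bars for standard errors. Filled points are the 17 factors whose 2 steps were called different, and the dotted line marks equal steps. Factors above the line fell more in the first step, 5 lie on or below it, and Rrp1 sits highest at 0.34 on the vertical axis.

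A further 118 ribosome biogenesis genes, a list drawn up by role with earlier results of these data known, were looked at in the same fit. Of these, 105 were called lower and 0 higher at day 4 against day 0 in edgeR, beside 36.4% and 35.5% of all tested genes, and 13 passed in neither direction. Among the 118, 1 was higher at an unadjusted p below 0.05, and DESeq2 called 104 lower and 0 higher. Their median log2 fold change was -1.04, with -0.75 for 11 further Pol I genes (7 called lower), -1.04 for 10 snoRNP assembly genes (10), -0.99 for 39 small subunit genes (35), -1.12 for 44 large subunit genes (39) and -0.94 for 14 nucleases of rRNA processing (14). The largest fall was that of Lyar, a nucleolar zinc finger protein, which was at 186 and 281 CPM at day 0, 41.0 and 40.3 CPM at day 2, and 27.3 and 22.1 CPM at day 4 (log2 fold change -3.24 ± 0.19, SE, edgeR adjusted p = 1.24e-07). The nucleolar RNA helicase Ddx21 fell by 2.50 (SE 0.18, edgeR adjusted p = 4.89e-07) and the pre-60S protein Rrp15 by 2.30 (SE 0.23, adjusted p = 4.51e-06).

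In the first step 98 of these 118 genes were lower and 1 higher at day 2 against day 0, beside 31.5% and 31% of all tested genes. At day 4 against day 2, 45 were lower and 1 higher, beside 16.2% and 14%. The count of 45 was likewise sensitive to single libraries, and was much smaller without day 2 replicate 1, day 4 replicate 2 or day 2 replicate 2. It was larger without either day 0 library. No share of all tested genes was worked out for these fits. The 2 genes called higher were named after their values were seen. Riok3, an atypical kinase of late pre-40S maturation, rose by 0.29 in the first step (SE 0.10, edgeR adjusted p = 0.0229), a call that did not hold without day 2 replicate 1 (adjusted p = 0.129) or day 2 replicate 2 (0.0981). Ddx54, a nucleolar helicase, was at 111 and 137 CPM at day 0, 57.3 and 61.5 CPM at day 2, and 86.0 and 79.1 CPM at day 4, and rose by 0.47 in the second step (SE 0.12, edgeR adjusted p = 0.0134), with its highest level at day 0 and its lowest at day 2. Like that of Rrp1, this call did not hold without any 1 of the day 2 and day 4 libraries (adjusted p from 0.0512 to 0.159).

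The mRNAs of cytosolic ribosomal proteins moved less than the mRNAs of the factors that assemble the ribosome. Of 80 tested cytosolic ribosomal protein genes, 49 were called lower and 6 higher at day 4 against day 0, beside 36.4% and 35.5% of all tested genes, with a median log2 fold change of -0.46. A log2 fold change of -1 or below was reached by 76.6% of the 47 factors, 52.5% of the 118 other biogenesis genes, 11.2% of the ribosomal protein genes and 19.0% of all tested genes. These shares describe the lists and were not tested against each other.

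**Figure D4:**
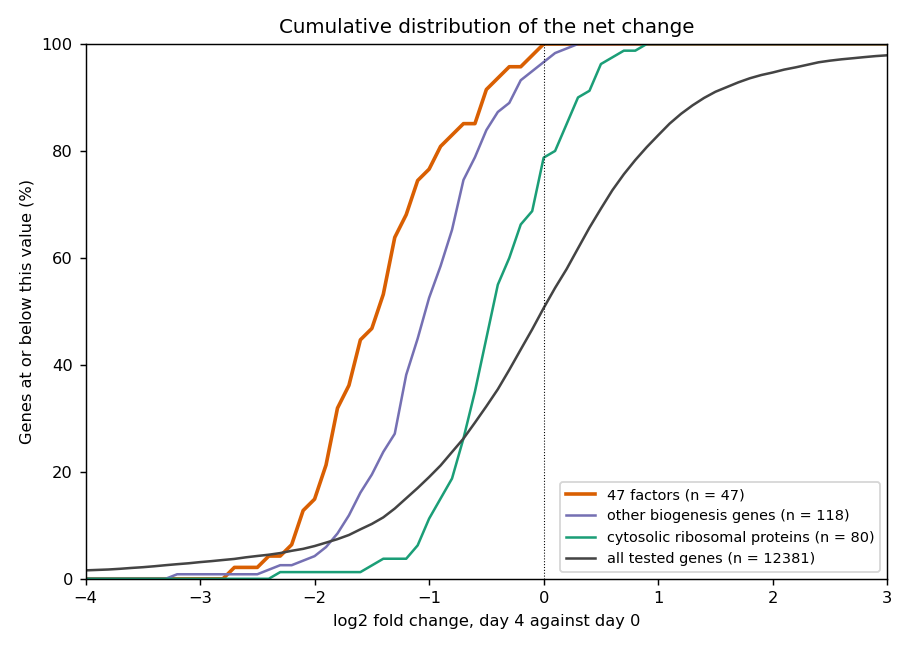
Cumulative share of genes, in percent, at or below each log2 fold change of day 4 against day 0, for the 47 factors, 118 other biogenesis genes, 80 cytosolic ribosomal protein genes and all 12381 tested genes. The curve of the 47 factors lies furthest left over most of its course, reaching 76.6% at a log2 fold change of -1, where all tested genes stand at 19.0%.

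The genes of the set lie on 18 chromosomes, and 2 features of the annotation were looked at beside their values. First, 7 of the 47 (14.9%) have a snoRNA gene within their bounds in RefSeq, against 2.28% of 11524 tested protein-coding genes: Nop56, Nop58, Dkc1, Ncl, Wdr43, Tsr1 and Gnl3. Snord57 and Snord110 lie inside Nop56 and Snord11 and Snord70 inside Nop58, and are box C/D snoRNAs, the class that the proteins Nop56 and Nop58 package. The median log2 fold change of day 4 against day 0 was -1.63 for the 7 and -1.48 for the other 40, and the snoRNAs themselves were not measured here.

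Second, promoter windows of 250 bases before to 50 after the start site (RefSeq, GRCm38.p6) were at hand for 40 of the 47, all but Fbl, Npm1, Nol6, Rrp12, Bop1, Gnl2 and Rrs1. The canonical E-box CACGTG, a palindrome bound by bHLH-zipper factors such as MYC and MAX, was found in the windows of 10 of these 40 (25.0%), namely Imp4, Nmd3, Nop2, Ltv1, Utp20, Pes1, Tsr1, Utp18, Rrn3 and Wdr43. It was present in 7.15% of all 32851 windows and in at least 1 window of 11.7% of the 9677 tested genes that had one. A match is a description of the letters, not of binding. The 10 genes had a median log2 fold change of -1.55 at day 4 and the 30 without the motif -1.38. Rrn3, the only one with 2 matches, was not called in any comparison. As the 40 genes had 48 windows, its matches may be 1 site seen from different start sites.

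The motif lay before the start site in 5 of the 10 genes, and the 3 of these with the largest falls are shown. They are the 250 bases before the start site of Nop2 (log2 fold change -1.85, motif beginning 60 bases before the start), Imp4 (-1.64, 121 bases before) and Utp18 (-1.34, 20 bases before), in GRCm38, 5′ to 3′ on the strand of the gene, with CACGTG in capitals.
Nop2 (chr6:125131633-125131882, plus strand): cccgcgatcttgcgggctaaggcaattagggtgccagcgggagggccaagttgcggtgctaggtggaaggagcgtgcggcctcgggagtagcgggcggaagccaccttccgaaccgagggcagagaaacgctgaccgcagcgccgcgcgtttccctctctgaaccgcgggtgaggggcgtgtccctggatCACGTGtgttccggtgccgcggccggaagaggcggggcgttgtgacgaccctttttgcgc
Imp4 (chr1:34439579-34439828, plus strand): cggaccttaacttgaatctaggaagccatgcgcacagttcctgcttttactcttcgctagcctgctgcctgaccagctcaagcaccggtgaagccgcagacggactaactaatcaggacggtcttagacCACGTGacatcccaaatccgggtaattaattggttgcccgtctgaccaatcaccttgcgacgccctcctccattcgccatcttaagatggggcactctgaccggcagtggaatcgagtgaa
Utp18 (chr11:93885767-93886016, minus strand): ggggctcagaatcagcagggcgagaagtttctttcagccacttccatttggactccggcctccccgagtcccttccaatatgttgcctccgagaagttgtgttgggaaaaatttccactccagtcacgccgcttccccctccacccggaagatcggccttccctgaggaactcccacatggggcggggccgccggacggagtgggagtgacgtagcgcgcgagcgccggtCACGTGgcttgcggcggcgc

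Nop2 was at 227 and 241 CPM at day 0, 80.8 and 78.9 CPM at day 2, and 73.0 and 56.9 CPM at day 4. Imp4 went from 125 and 86.4 CPM to 52.1 and 49.9 CPM and then 32.3 and 35.6 CPM, and Utp18 from 50.2 and 67.1 CPM to 31.6 and 31.7 CPM and then 24.0 and 22.5 CPM. In each of them both day 4 libraries were below both day 2 libraries, which were below both day 0 libraries. As the 3 were chosen for the size of their falls, this order says nothing of the motif.

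Some counts could hold reads of another gene. Exons of 12 factors overlap exons of a gene on the opposite strand, by 5 to 1159 bases, most in Tsr1, which shares 1159 bases with Srr, and next in Imp4, which shares 209 with the antisense gene Gm28306. The kit keeps strand, but the strand setting of the counting is not given in the sources used here, so reads of such partners may not be separated. Pseudogenes with at least 50% of their 31-base words in the factor's own transcripts were found for Nop56 (4), Npm1 (2), Fbl (1) and Mrto4 (1), and the counts of these 4 are uncertain to that extent.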

How the data were processed

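Polyadenylated RNA of MEL cells at days 0, 2 and 4 of 2% DMSO was sequenced with a stranded kit, in 2 cultures a day. The authors trimmed reads with cutadapt, aligned them with TopHat to mm10 (GRCm38) and deposited raw counts per RefSeq transcript made with HTSeq. The overlap and strand settings of that counting are not given in the sources used here. No read was entered as ambiguous in any library. For Nolc1 and for Mrto4 another transcript had the same count in every library as the transcript used. A read on several transcripts of a gene may therefore have been counted for each, also in the library totals. HTSeq's 5 summary entries per file were set aside, and reads on no feature made up 50.5% to 58.4% of the file totals. Symbols came from the RefSeq table for 32199 of 32654 transcripts and from GENCODE for 187, and 268 had none.

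edgeR 4.0.16 in R 4.3.3 (filterByExpr, TMM, glmQLFit, glmQLFTest, with day as a factor, all 6 libraries) was run on 18351 transcripts, with Benjamini-Hochberg adjustment over all of them and calls at an adjusted p below 0.05. DESeq2 1.42.0, other scalings, filters, feature sets and leaving out libraries were alternatives. Standard errors of edgeR values were not given by the test and were derived as the size of the log2 fold change over the square root of its F statistic. The fit was tested on simulated counts first. TMM factors were 0.921 to 1.07. The lowest level of any factor in any library was 11.9 CPM (Wdr12).

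The 47 factors and the other lists were chosen by role with earlier results of these data known. All factors were named. Given by library were, in each role, the genes with the largest and smallest size of change from day 0 to day 4, any gene called higher, in roles of over 10 genes the 2 next largest, and the genes whose promoters are printed, which were the 3 with CACGTG before the start and the largest falls. Nhp2 and Imp3 were added as examples after their values were seen. Among other biogenesis genes the 3 largest falls were named, leaving out those averaging under 1 on the log2 CPM scale. Promoters came from RefSeq windows and overlaps from GENCODE. Levels were not compared between genes. A further erythroid marker of the list is not reported here.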

Additional observations from a re-analysis of the deposited data

How the results depend on the processing

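The counts of factors called lower at day 2 and at day 4 against day 0 stayed within 1.5 times under every alternative, except at day 2 with a required log2 fold change of 1. That requirement left 25 of 44 at day 2 against day 0 and 0 of 26 lower and 0 of 1 higher at day 4 against day 2, and among the 118 other genes 31 lower and 0 higher, 1 lower and 0 higher, and 62 lower at day 4 against day 0. The share of all tested genes that met it was worked out only for a fall at day 4 against day 0, at 18.8%, so the other counts have no such measure beside them. With total counts the median over all tested genes moved by 0.20 (day 2 against day 0), -0.08 (day 4 against day 2), 0.12 (day 4 against day 0) and -0.28 (second step minus first), and the share of lower among all calls went from 50.4% to 36.6%, 53.6% to 67.3%, 50.6% to 44.9% and 56.2% to 80.2%. The factors' medians moved with it, to -0.86, -0.53, -1.36 and 0.27, and relative to all tested genes stayed at -1.06, -0.44, -1.46 and 0.58. Under total counts 0 factors were higher at day 4 against day 2, 3 other genes were higher at day 2 and 1 at day 4 against day 0. The second-step count of the 118 genes was 68 lower and 5 higher with only the 2 days compared, 2 higher with DESeq2 and 2 with relative log expression factors. Without the filter 2 were higher at day 2, and with 1 transcript per gene 1 was higher at day 4. The counts of these fits stand without the share of all tested genes beside them.

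Leaving out each library in turn gave 41 to 46 factors lower and 0 higher at day 2 (median -1.07 to -0.98), 5 to 32 lower and 0 to 1 higher at day 4 against day 2 (-0.57 to -0.35), 41 to 46 lower and 0 to 1 higher at day 4 against day 0 (-1.57 to -1.39), and 3 to 30 with a larger first fall (0.43 to 0.66). Of the 118 genes it left 82 to 101 lower and 0 to 3 higher, 4 to 69 lower and 0 to 5 higher, and 99 to 106 lower and 0 to 2 higher.

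Libraries with the same replicate number showed little shared deviation (correlations 0.03, 0.05 and 0.08). The labels do not say how cultures of different days relate, so these values cannot show whether they were paired. With the replicate number as a replicate block, 44, 27 and 45 factors were lower in the 3 comparisons and 0 higher at day 4 against day 2, 20 fell more in the first step, and the Ubtf value at day 4 was 0.0045. The share of all tested genes was not worked out for this fit.

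Over all comparisons the sign of 20 single-gene values turned under some alternative. In the fit as reported 0 of them were called, and 1 was called after turning, Ubtf at day 4 against day 0. Ubtf was 0.0947 and Rrn3 0.0224 at day 2 with total counts, and Ubtf 0.10 at day 4. Without 1 library Ubtf ranged from -0.36 to 0.20 at day 2 and from -0.28 to 0.28 at day 4 against day 0. The causes of these shifts were not tested.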
